A study of Mus musculus with 6 samples.

Results

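Hypothalamic neurons were selected from single-nucleus RNA sequencing (nucSeq) of the mouse hypothalamus, as a sample of kisspeptin/neurokinin B/dynorphin (KNDy) neurons. They combined messages of neurokinin B or kisspeptin with that of the neurokinin B receptor or of estrogen receptor alpha. A member nucleus had at least 1000 unique molecular identifiers (UMIs, each a single counted RNA molecule), at least 2 UMIs of the neuronal genes *Snap25*, *Syt1* and *Rbfox3* together, at least 3 UMIs of *Tac2* and *Kiss1* together, at least 1 UMI of *Tacr3* or *Esr1*, fewer than 8 *Pomc* UMIs per 10000 and fewer than 2 *Agrp* UMIs. Of 39953 nuclei in all, 34707 were neurons by the first 2 conditions and 244 were members, which is 0.611% of nuclei and 0.703% of neurons. The nuclei came from male wild-type C57Bl/6 mice aged 6 to 8 weeks, of which 12 were fed chow ad libitum and 6 were fasted for 16 h overnight, with no other treatment or allele in either group. Hypothalami of 6 mice at a time were pooled within a condition. This gave 2 pools of mice fed ad libitum (called fed below), worked up on different days, and a single fasted pool. DRAQ5-stained single nuclei of a pool were sorted into 2 tubes, so there were 4 fed and 2 fasted droplet libraries, and the labels did not say which fed libraries shared a pool. A fold or p-value between conditions therefore compared 2 pools with 1, the 2 fasted libraries measured a single pool, and the day of the fasted pool and the fasting itself cannot be told apart.

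KNDy neurons lie in the arcuate nucleus at the base of the hypothalamus and are known as a pacemaker of the reproductive axis. In textbook accounts, neurokinin B (encoded by *Tac2*) acts on its receptor NK3R (*Tacr3*) on neighbouring KNDy neurons to start a burst of activity, dynorphin (from *Pdyn*) ends the burst through the kappa opioid receptor (*Oprk1*), and kisspeptin (*Kiss1*) is released onto the axons of neurons that secrete gonadotropin-releasing hormone. They carry estrogen receptor alpha (*Esr1*), through which gonadal steroids lower *Kiss1* and *Tac2*, most are glutamatergic, and they have long been discussed as a route by which energy shortage reaches fertility.

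The members were not spread evenly over the libraries. Fed libraries 1 to 4 held 24, 18, 88 and 80 members, and fasted libraries 1 and 2 held 16 and 18. Libraries 3 and 4 thus supplied 168 of the 244. These libraries stood apart in other ways as well. They held 59083864 and 59940795 UMIs, against 39556605 and 31757655 in fed libraries 1 and 2 and 36177621 and 35567902 in the fasted pair. Ribosomal protein and mitochondrially encoded genes took 2.03% and 2.06% of the UMIs of the other neurons in libraries 3 and 4, and 0.483%, 0.495%, 0.305% and 0.304% in fed 1 and 2 and fasted 1 and 2. At least 1 *Tac2* UMI was found in 11.9% and 12.5% of the other neurons of libraries 3 and 4, and in 4.40%, 4.44%, 3.60% and 2.86% of those of the other libraries in the same order. The part of free peptide RNA in the number of members was not tested. Between 5 and 17 barcode sequences were shared by each pair of libraries, and none of the shared barcodes was a member in both.

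**Figure D1:**
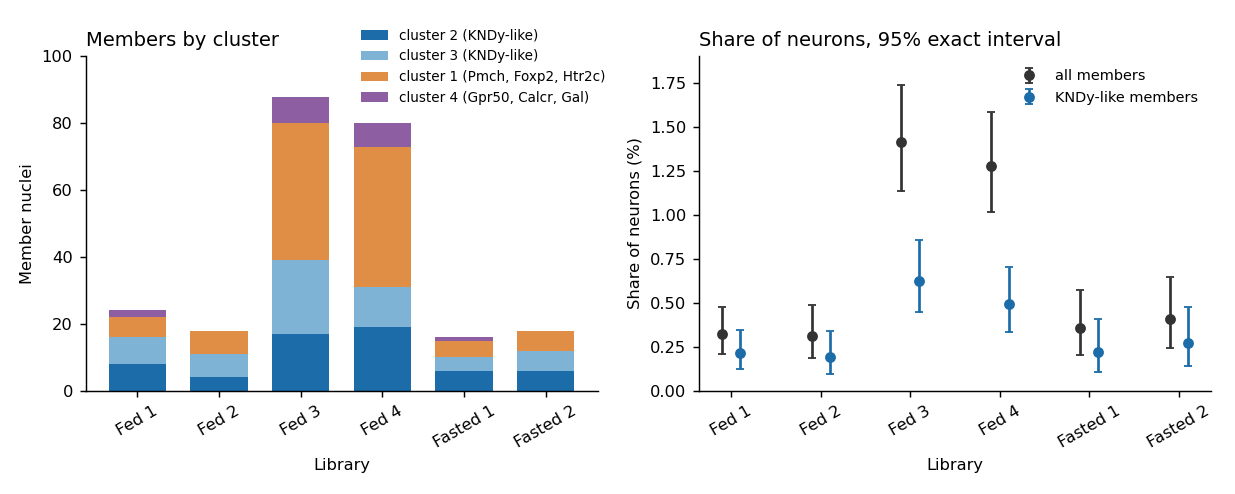
Member nuclei in each library by cluster (left, number of nuclei) and members as a percentage of neurons (right, with 95% exact binomial intervals) for all members and for those of the KNDy-like clusters. Fed libraries 3 and 4 held 88 and 80 members, most of the excess in cluster 1, while the other 4 libraries held 16 to 24.

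The label was checked against the genes that define KNDy neurons, which the rule had used in part, so the following counts are a description. *Tac2* was seen in 231 of the 244 members (94.7%), *Esr1* in 228 (93.4%), *Kiss1* in 117 (48.0%), *Tacr3* in 55 (22.5%) and *Pdyn*, which the rule did not use, in 51 (20.9%). The receptor condition was met through *Esr1* alone in 189 nuclei, through *Tacr3* alone in 16 and through both in 39. *Tac2* and *Kiss1* occurred together in 104 members, and all 3 peptide messages of the KNDy name in 39 (16.0%). Nuclei just inside the peptide threshold, with 3 *Tac2* plus *Kiss1* UMIs, numbered 63, and another 94 that met every other condition fell just outside it with 2. The single-UMI edge of the receptor condition held 96 members. The *Agrp* condition removed 23 nuclei and the *Pomc* condition 1. The median member had 6.5 *Tac2* plus *Kiss1* UMIs, and the library medians were 4, 3, 13.5 and 13 in the fed libraries and 3 in each fasted library.

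The data went partly against the label. Clustering the members on genes other than those of the rule gave 4 clusters, and only 2 of them, with 60 and 59 nuclei, were richer than all members together in each of *Kiss1*, *Tacr3* and *Pdyn*. These 119 nuclei (48.8% of the members) are called KNDy-like below. Among them *Kiss1* was seen in 94 nuclei (79.0%), *Pdyn* in 41 (34.5%) and *Tacr3* in 37 (31.1%), and *Tbx3*, which encodes a transcription factor of arcuate peptide neurons, was seen in 27.7%, against 3.2% of the 125 other members. The leading genes of the first KNDy-like cluster were *Rxfp1*, *Kcnmb2*, *Sned1*, *Vgll3* and *Nr5a2*, and those of the second *Col24a1*, *Nxf3*, *Drd2* and *Kctd8*. They were the genes that formed the clusters, so the lists are no test.

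The remaining 125 nuclei were mainly GABAergic. Of 107 nuclei in cluster 1, whose leading genes were *Pmch*, *Foxp2* and *Htr2c*, 73 had more UMIs of the GABA genes *Slc32a1*, *Gad1* and *Gad2* than of *Slc17a6*, the vesicular glutamate transporter. The first rank of *Pmch* came from a single nucleus, which held 2554 of the 2695 *Pmch* UMIs of the members in fed libraries 3 and 4. All 18 nuclei of cluster 4 were GABAergic and had a *Gal* UMI, none had a *Kiss1* or *Tacr3* UMI, and *Gpr50*, *Calcr* and *Rorb* led it. By this transmitter rule 86 of all members were glutamatergic, 111 GABAergic and 47 undecided. Among the KNDy-like nuclei 63 were glutamatergic and 20 GABAergic, and among the other members 23 and 91. Fed libraries 3 and 4 held 100 of the 111 GABAergic members and 83 of the 107 nuclei of cluster 1, but 70 of the 119 KNDy-like nuclei. The 11 members in the top 5% of a doublet score were all outside the KNDy-like clusters.

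**Figure D2:**
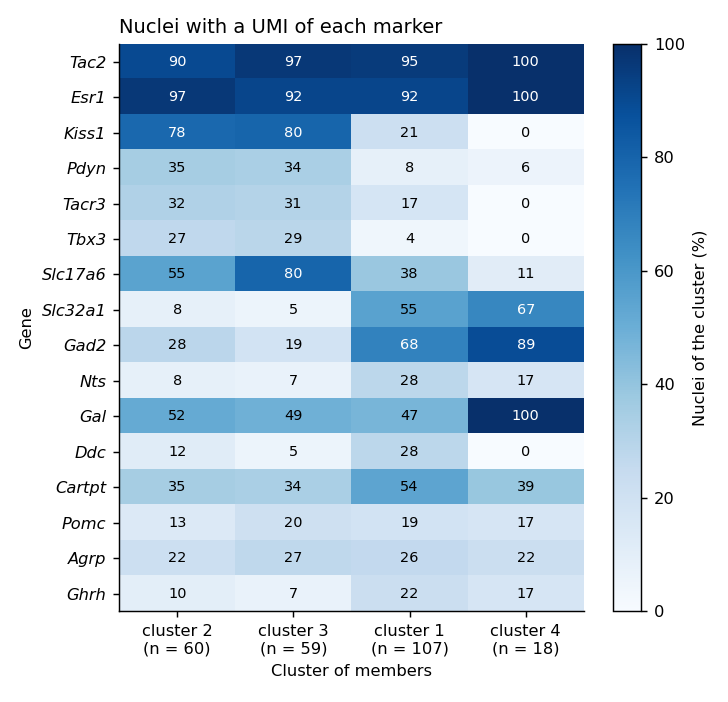
Percentage of the nuclei of each member cluster with at least 1 UMI of a marker gene (rows), for the KNDy-like clusters 2 and 3 and for clusters 1 and 4, with the number of nuclei below each column. *Kiss1*, *Pdyn*, *Tacr3* and *Tbx3* were most often seen in clusters 2 and 3, and *Gad2* and *Slc32a1* in clusters 1 and 4.

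*Tac2* and *Kiss1* were highest in fed libraries 3 and 4. Levels are given in CPM, the UMIs of a gene summed over the members of a library and scaled to the same total of 1000000 in each library, and a level of a gene is set only against the same gene elsewhere. *Tac2* was at 620.5, 666.6, 1490 and 1522 CPM in fed libraries 1 to 4 and at 390.2 and 385.0 CPM in fasted libraries 1 and 2. *Kiss1* was at 157.1, 81.9, 397.3 and 277.5 CPM in the fed libraries and at 79.6 and 113.2 CPM in the fasted ones. The rule had used both genes, so they get no test, and the fasted values of *Kiss1* overlapped those of fed libraries 1 and 2. *Pdyn* was at 31.4, 11.7, 30.5 and 37.7 CPM in the fed libraries and at 39.8 and 45.3 CPM in the fasted ones, against 4.75, 5.88, 8.50, 9.12, 6.24 and 4.42 CPM in the other neurons of the same libraries. *Pdyn* was higher in the members in all 6 libraries, but its counts were too few for the test. Over all libraries *Pdyn* had a UMI in 44 of the 117 members that had one of *Kiss1* (37.6%) and in 7 of the 127 that had none (5.51%). Their median depths were 6794 and 8340 UMIs. In fed libraries 1 to 4 the medians with *Kiss1* were 5058, 4986, 8110 and 7022 UMIs, against 4394, 4230, 9172 and 9284 without. In fasted libraries 1 and 2 they were 6848 and 7759 UMIs, against 8467.5 and 6243. The part of depth was not tested. The *Pdyn* share was higher with *Kiss1* in 5 of 6 libraries, while fed library 2 had *Pdyn* in 0 of 7 nuclei with *Kiss1* and in 1 of 11 without. Of the 117 nuclei with *Kiss1*, 94 lay in the clusters named KNDy-like for being rich in both genes.

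*Kiss1* (chr1:133321875-133329901, plus strand, GRCm38) is overlapped on the same strand by the longer gene model *Gm28040*, which the authors removed before counting and which is not among the features of the files. *Tac2* lies at chr10:127724478-127731768 (plus strand), *Pdyn* at chr2:129686565-129699844 (minus strand) and *Tacr3* at chr3:134829007-134934579 (plus strand), all protein-coding genes. Promoter sequences of the 2 peptide genes of the rule and of *Greb1*, the estrogen-induced gene described below, are shown because all 3 messages were abundant in the members and *Kiss1* and *Greb1* are textbook targets of estrogen receptors. Each is the 250 bases before the RefSeq start (GRCm38.p6), 5′ to 3′ on the strand of the gene, with the estrogen response half-site GGTCA, or TGACC when read on the other strand, in capitals.
*Kiss1*, chr1:133326962-133327211, plus strand: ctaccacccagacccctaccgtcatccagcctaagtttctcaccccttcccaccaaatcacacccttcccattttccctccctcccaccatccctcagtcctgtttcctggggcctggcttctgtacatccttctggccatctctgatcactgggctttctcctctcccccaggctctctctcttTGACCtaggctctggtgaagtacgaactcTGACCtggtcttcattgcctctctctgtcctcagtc
*Tac2*, chr10:127724228-127724477, plus strand: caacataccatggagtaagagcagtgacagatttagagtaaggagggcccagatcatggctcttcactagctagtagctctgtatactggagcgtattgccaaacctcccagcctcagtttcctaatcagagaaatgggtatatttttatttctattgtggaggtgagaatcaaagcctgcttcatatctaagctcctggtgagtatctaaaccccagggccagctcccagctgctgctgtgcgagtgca
*Greb1*, chr12:16800887-16801136, minus strand: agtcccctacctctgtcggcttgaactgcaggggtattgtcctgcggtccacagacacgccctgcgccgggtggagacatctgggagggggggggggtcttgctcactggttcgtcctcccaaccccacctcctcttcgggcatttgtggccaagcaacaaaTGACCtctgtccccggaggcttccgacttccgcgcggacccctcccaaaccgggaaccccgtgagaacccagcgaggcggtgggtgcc
The window of *Kiss1* held 2 half-sites, 65 and 36 bases before the start, the *Greb1* window shown held 1, 88 bases before the start, and that of *Tac2* held none. A second RefSeq start of *Greb1*, with the window chr12:16757240-16757489, had 2 half-sites, 194 and 85 bases before it. Half-sites are common, since 35.2% of 32851 promoters of this length held at least 1. The full palindrome GGTCANNNTGACC was in 0.0639% of promoters. The window of *Kiss1* lies within the annotated span of the gene given above. These letters are a description of the windows and say nothing about binding.

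Steroid receptors other than *Esr1* were tested, since the rule had not used them. Members were compared with the other 34463 neurons in counts summed per pool, with the pool as a block, by edgeR's quasi-likelihood test. Because the pairing of the fed libraries was unknown, the largest p of 3 fits, one per possible pairing, was kept for each gene and adjusted by the Benjamini-Hochberg method over 6537 genes. A total of 267 genes (4.08% of those tested) passed an adjusted p of 0.05, 127 higher (1.94%) and 140 lower (2.14%) in the members.

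The progesterone receptor gene *Pgr* was at 196.4, 140.3, 114.5, 101.0, 87.6 and 128.3 CPM in the members of fed libraries 1 to 4 and fasted libraries 1 and 2, and between 46.8 and 52.5 CPM in other neurons, a log2 fold change of 1.24 ± 0.15 (SE, adjusted p = 0.000623 by edgeR). No library of the members overlapped the other neurons. The receptors of adrenal steroids were lower, with log2 fold changes of -0.71 ± 0.17 for the glucocorticoid receptor gene *Nr3c1* (adjusted p = 0.0381 by edgeR) and -0.85 ± 0.18 for the mineralocorticoid receptor gene *Nr3c2* (adjusted p = 0.0172 by edgeR). The call of *Nr3c1* was lost without any one of the 6 libraries, with adjusted p-values between 0.0568 and 0.218, and that of *Nr3c2* with at least 5 *Tac2* plus *Kiss1* UMIs per nucleus (adjusted p = 0.184). In the KNDy-like nuclei *Esr1* was at 859.5, 515.1, 428.2, 430.2, 716.8 and 901.7 CPM, with the lowest values in fed libraries 3 and 4, and in other neurons between 33.3 and 46.2 CPM.

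*Greb1* (chr12:16670615-16800886, minus strand), a cofactor induced by estrogen receptors, was at 219.9, 70.2, 79.2 and 49.8 CPM in the members of the fed libraries and at 191.1 and 218.9 CPM in those of the fasted ones. Other neurons had between 5.89 and 14.9 CPM. Every library of members was above every library of other neurons, with a log2 fold change of 3.63 ± 0.26 (adjusted p = 5.25e-05 by edgeR). Within the members the fasted libraries lay in the upper part of the fed range. In the KNDy-like nuclei *Greb1* was at 335.8, 79.2, 192.7 and 141.8 CPM in the fed libraries and at 311.1 and 312.1 CPM in the fasted ones.

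Receptors of peptide and metabolic hormones set the members apart most clearly through 2 genes, *Rxfp1* and *Prlr*. *Rxfp1* (chr3:79641611-79737880, minus strand), the receptor of relaxin, was at 510.5, 362.5, 65.8 and 68.7 CPM in the members of the fed libraries and at 342.4 and 505.8 CPM in those of the fasted ones, and between 6.55 and 12.1 CPM in other neurons. Libraries 3 and 4 were far below the other 4, yet still above all other neurons, and the log2 fold change was 4.66 ± 0.35 (adjusted p = 3.55e-05 by edgeR). A *Rxfp1* UMI was seen in 54.6% of the KNDy-like nuclei and in 12.0% of the other members. KNDy-like nuclei were 16, 11, 39 and 31 of the 24, 18, 88 and 80 members of the fed libraries. In the fasted libraries they were 10 of 16 and 12 of 18. The part of this mixture in the *Rxfp1* levels was not tested. *Prlr* (chr15:10177238-10349180, plus strand), the prolactin receptor, was at 463.4, 514.5, 312.0 and 273.5 CPM in the fed members, at 605.2 and 845.6 CPM in the fasted ones and between 85.0 and 98.2 CPM in other neurons. Its log2 fold change was 2.31 ± 0.21 (adjusted p = 5.63e-05 by edgeR), higher in 6 of 6 libraries.

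Of 29 receptors and ligands on this list 15 were tested, 3 were higher and 2 lower, and their median log2 fold change was -0.16, against 0.01 over all genes tested. The third higher gene was *Npy5r*, a receptor of neuropeptide Y, at 1.17 ± 0.27 on the log2 scale (adjusted p = 0.0288 by edgeR), and it lost its call without fed library 1 or 3 or either fasted library, with adjusted p-values between 0.0678 and 0.0942. The growth hormone receptor gene *Ghr* was lower by a log2 fold change of -1.06 ± 0.21 (adjusted p = 0.0139 by edgeR). The fold was -0.69 in glutamatergic members alone, where it did not pass (adjusted p = 0.144), and -1.63 without fed libraries 3 and 4. The other lower gene was *Grm5*, a metabotropic glutamate receptor, at -0.73 ± 0.14 on the log2 scale (adjusted p = 0.0282 by edgeR), and its call was lost without fasted library 1 (-0.70, adjusted p = 0.0832) and with at least 5 *Tac2* plus *Kiss1* UMIs per nucleus (-0.39, adjusted p = 0.320). The kappa receptor gene *Oprk1* was higher in the members in 6 of 6 libraries, at 39.3, 70.2, 30.5 and 36.4 CPM in the fed and 79.6 and 75.5 CPM in the fasted libraries against 20.6 to 28.7 CPM, but missed the threshold with a log2 fold change of 0.93 ± 0.31 (adjusted p = 0.145 by edgeR). The kisspeptin receptor gene *Kiss1r* did not reach the filter, with a mean of 5.11 ± 4.19 CPM (SD, n = 6 libraries) in the members and 5.09 ± 0.36 CPM in other neurons.

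**Figure D3:**
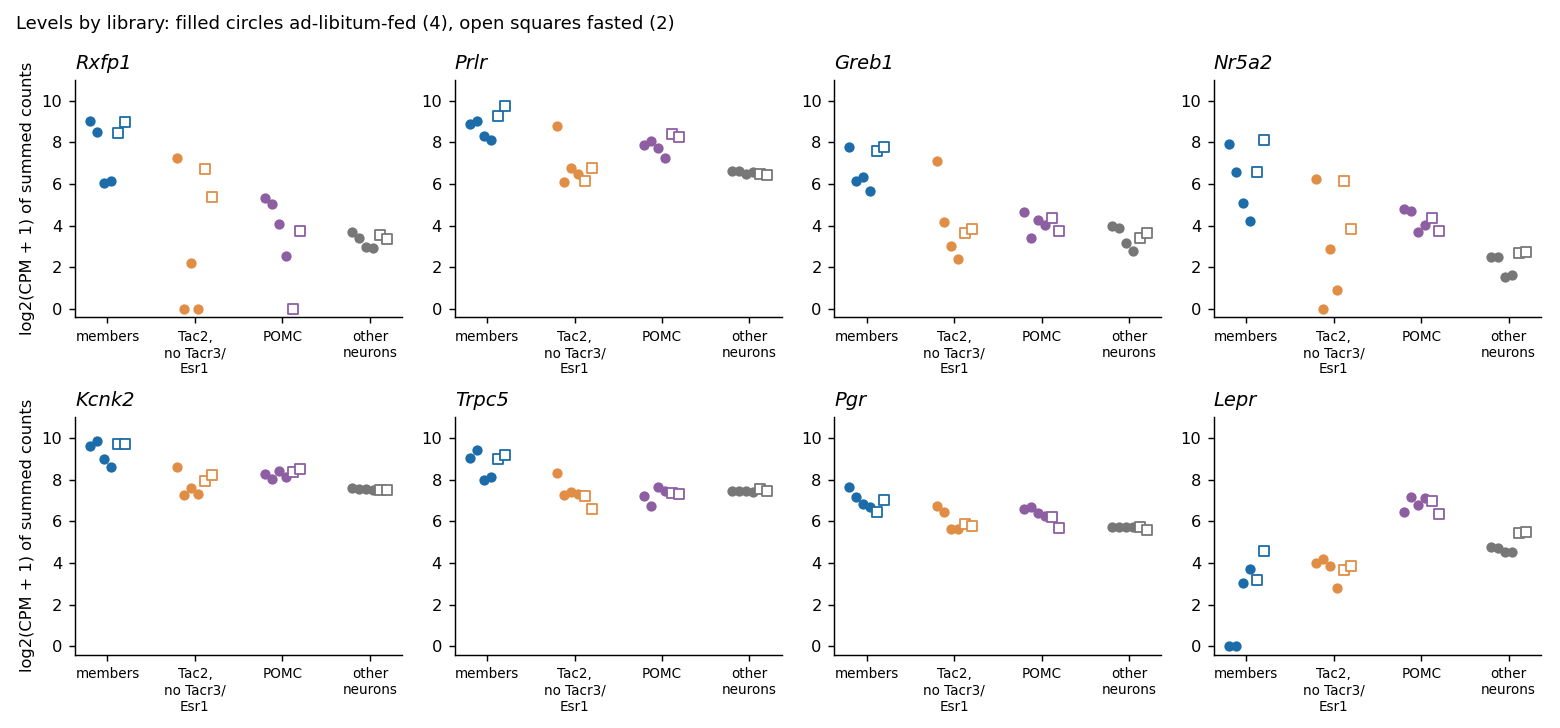
Levels of 8 genes, as log2(CPM + 1) of the counts summed per library, in members, in *Tac2* neurons without *Tacr3* or *Esr1*, in POMC neurons and in other neurons (filled circles 4 fed libraries, open squares 2 fasted libraries). *Rxfp1*, *Prlr*, *Greb1*, *Nr5a2*, *Kcnk2*, *Trpc5* and *Pgr* were higher in every library of members than in the other neurons, and *Lepr* was below the level of POMC neurons in every library.

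Few transcription factors of the list reached the filter. Of 26 genes 5 were tested, 1 was higher and 1 lower, with a median log2 fold change of -0.14. *Nr5a2*, which encodes the nuclear receptor LRH-1, was at 243.5, 93.5, 32.9 and 17.5 CPM in the fed members and at 95.6 and 271.8 CPM in the fasted ones, and between 1.85 and 5.73 CPM in other neurons. It was above the other neurons in all 6 libraries, by a log2 fold change of 4.67 ± 0.42 (adjusted p = 0.000642 by edgeR), and lowest in fed libraries 3 and 4. With at least 5 *Tac2* plus *Kiss1* UMIs per nucleus its log2 fold change was 4.41 and did not pass (adjusted p = 0.0852). A *Nr5a2* UMI was seen in 45.4% of the KNDy-like nuclei and in 7.2% of the other members. *Isl1*, a LIM homeobox gene of several arcuate lineages, was lower, by a log2 fold change of -0.94 ± 0.22 (adjusted p = 0.0291 by edgeR), a call lost without fasted library 1 (adjusted p = 0.0568) and with DESeq2 (adjusted p = 0.0518).

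Among 28 genes of ion channels that shape excitability 16 were tested, with 1 higher, 1 lower and a median log2 fold change of -0.14. *Trpc5*, a receptor-operated cation channel that carries slow depolarizations, was at 526.2, 678.3, 249.8 and 281.6 CPM in the fed members and at 509.7 and 588.9 CPM in the fasted ones, against 166.9 to 187.4 CPM in other neurons. All 6 libraries of members were higher, with a log2 fold change of 1.28 ± 0.18 (adjusted p = 0.00177 by edgeR). Its relative *Trpc4* went the other way, with a log2 fold change of -0.998 ± 0.20 (adjusted p = 0.0153 by edgeR). Outside this list, the two-pore potassium channel gene *Kcnk2* was at 793.3, 912.1, 510.6, 394.8, 836.2 and 838.0 CPM in the members, and between 177.2 and 189.9 CPM in other neurons. It was higher by a log2 fold change of 1.86 ± 0.17 (adjusted p = 5.63e-05 by edgeR).

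Other neuropeptide messages of the list were mostly lower in the members than in other neurons. Of 24 genes 13 were tested, 3 were higher and 7 lower, and the median log2 fold change was -1.04. Oxytocin (*Oxt*) was at 15.7, 23.4, 186.4, 203.4, 0 and 7.55 CPM in the members and at 49.9, 74.0, 883.0, 1050, 22.1 and 17.2 CPM in other neurons, so that both followed the library while the members stayed lower in 6 of 6 libraries. The log2 fold change of *Oxt* was -2.28 ± 0.18 (adjusted p = 3.91e-05 by edgeR), and that of vasopressin (*Avp*) was -1.60 ± 0.21 (adjusted p = 0.00108 by edgeR). Galanin (*Gal*) was the only higher peptide with the same direction in all 6 libraries. It was at 110.0, 35.1, 812.8 and 512.0 CPM in the fed members and at 31.9 and 30.2 CPM in the fasted ones, against 30.4, 33.3, 226.9, 217.6, 12.7 and 10.3 CPM in other neurons, and the log2 fold change was 1.51 ± 0.15 (adjusted p = 9.34e-05 by edgeR). It was highest in libraries 3 and 4, in the members as in other neurons. A *Gal* UMI was seen in 50.4% of the 119 KNDy-like nuclei and in 54.4% of the 125 other members. In the KNDy-like nuclei the share was 43.75%, 0%, 66.7% and 77.4% in the fed and 10% and 16.7% in the fasted libraries. The part of free RNA in these shares was not tested. The other higher calls were *Nts* and *Ghrh*, each higher in 2 of 6 libraries, and in library 3 a single KNDy-like nucleus held 136 of the 197 *Ghrh* UMIs of its group.

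Of 13 genes of the secretory granule all were tested and 2 passed, with 4.08% of all genes tested as background. *Scg2* (secretogranin II) was higher by a log2 fold change of 0.57 ± 0.12 (adjusted p = 0.0195 by edgeR) and the convertase gene *Pcsk2* was lower by -0.47 ± 0.12 (adjusted p = 0.0469 by edgeR), with a list median of -0.09. The call of *Scg2* was lost without fed library 1 (adjusted p = 0.0678), and that of *Pcsk2* without any one library (adjusted p = 0.0525 to 0.292). Of 20 immediate early genes 4 were tested and *Nr4a2* alone passed, higher by a log2 fold change of 2.52 ± 0.55 (adjusted p = 0.0228 by edgeR). It was at 102.1, 175.4, 21.9 and 21.6 CPM in the fed members and at 7.96 and 75.5 CPM in the fasted ones, against 5.76 to 10.8 CPM in other neurons, a wide spread in which fasted library 1 was close to the other neurons. *Sv2c*, a synaptic vesicle protein on the list of fasting-related genes, was higher by 1.51 ± 0.16 on the log2 scale (adjusted p = 0.000210 by edgeR), the single call among 6 genes tested of 16. None of 89 ribosomal protein and mitochondrially encoded genes passed, with a median of 0.20.

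Among all genes tested, the 10 higher in the members with the smallest p-values, at least 2-fold and in all 6 libraries, were *Tmem164*, *Rxfp1*, *Hs3st5*, *Greb1*, *Enox2*, *Fgf13*, *Kcnk2*, *Tnxb*, *Prlr* and *Col24a1*. *Col24a1*, a fibrillar collagen gene, was at 133.5, 292.4, 40.2, 44.5, 167.2 and 279.3 CPM in the members and between 3.12 and 7.94 CPM in other neurons, a log2 fold change of 4.52 ± 0.35 (adjusted p = 8.68e-05 by edgeR). *Hs3st5*, a heparan sulfate sulfotransferase gene, was higher by 2.56 ± 0.19 on the log2 scale (adjusted p = 3.96e-05 by edgeR). By the same rule, lower in all 6 libraries, the 10 lower genes were *Oxt*, *Slit3*, *Adamtsl1*, *Gpc5*, *Dpp10*, *Kcnh7*, *Unc13c*, *Avp*, *Sulf1* and *Nxph1*. *Slit3*, an axon guidance gene, was lower by -1.82 ± 0.19 and the potassium channel gene *Kcnh7* by -1.24 ± 0.16 on the log2 scale (adjusted p = 0.000202 and 0.000747 by edgeR). Without fed libraries 3 and 4, with the other 4 libraries as samples, 441 of 2365 genes passed, and 177 of them were among the 267. Of the 32 called genes followed by name through every setting, 26 kept their call whichever library was left out. Without libraries 3 and 4, 21 of the 32 reached the filter and all 21 passed. In that setting the 2 fasted libraries came from a single pool, and fed libraries 1 and 2 may have shared another. Its samples were thus not independent pools, and its p-values do not measure the spread between pools.

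POMC neurons, the arcuate neurons of the melanocortin system, served as a further comparison set. They were 351 neurons with at least 8 *Pomc* UMIs per 10000, fewer than 2 *Agrp* UMIs and fewer than 3 *Tac2* plus *Kiss1* UMIs, with a median of 6979 UMIs in the fed and 7290 in the fasted libraries against 7786 and 7689 in the members. Of 6615 genes 404 (6.11%) differed, 226 higher (3.42%) and 178 lower (2.69%) in the members. The leptin receptor gene *Lepr*, through which adipose tissue signals energy stores, was at 0, 0, 7.31 and 12.1 CPM in the members of the fed libraries and at 7.96 and 22.6 CPM in those of the fasted ones. POMC neurons had 86.8, 144.5, 109.8, 138.6, 125.8 and 81.4 CPM. The sets did not overlap for *Lepr*, and the log2 fold change was -3.68 ± 0.31 (adjusted p = 4.28e-06 by edgeR). A *Lepr* UMI was seen in 6.15% of all members, and in 0%, 0%, 5.68% and 10% of those of the fed libraries. In the fasted libraries the shares were 6.25% and 5.56%. The share in POMC neurons is not given here.

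Receptors accounted for further differences from POMC neurons. Of 16 tested, 4 were higher and 6 lower, with a median log2 fold change of 0.02. *Npy1r* was lower by -2.29 ± 0.35 on the log2 scale (adjusted p = 0.000555 by edgeR), *Npy5r* by -1.71 ± 0.20 (adjusted p = 4.29e-05 by edgeR) and the mu opioid receptor gene *Oprm1* by -1.46 ± 0.20 (adjusted p = 0.000323 by edgeR). With DESeq2 *Npy1r* did not pass (-2.07, adjusted p = 0.251). *Npy5r* stood above its level in other neurons but below that in POMC neurons. *Rxfp1* was higher by 3.70 ± 0.29 (adjusted p = 1.54e-05 by edgeR), and the insulin-like growth factor receptor gene *Igf1r* by 1.17 ± 0.18 (adjusted p = 0.00194 by edgeR, 0.0548 with DESeq2). The list of KNDy genes had 1 tested gene, *Oprk1*, which was at 5.98, 3.14, 9.65, 8.29, 13.2 and 25.1 CPM in POMC neurons. Its values in the members were higher in every library, by a log2 fold change of 2.20 ± 0.36 (adjusted p = 0.00100 by edgeR).

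Arcuate transcription factors were lower in the members than in POMC neurons for 4 of 8 genes tested and higher for 2, with a median log2 fold change of -1.18. *Isl1* was lower by -2.32 ± 0.22, *Six3* by -2.23 ± 0.22, *Tbx3* by -1.95 ± 0.25 and *Prox1* by -1.90 ± 0.31 on the log2 scale (adjusted p = 8.02e-06, 2.29e-05, 0.000117 and 0.00100 by edgeR). These folds included the 125 members outside the KNDy-like clusters, where *Tbx3* was seen in 3.2%, against 27.7% of the KNDy-like nuclei. No test against POMC neurons was made for the KNDy-like nuclei alone. With glutamatergic members alone 2 genes of this list were tested, 1 higher and 1 lower. *Nr5a2* was higher by 2.23 ± 0.37 and *Mef2c* by 1.66 ± 0.31 (adjusted p = 0.00564 and 0.00432 by edgeR), and neither passed with at least 5 *Tac2* plus *Kiss1* UMIs (adjusted p = 0.0989 and 0.0720). Channel genes were higher for *Cacna1g*, a T-type calcium channel (2.04 ± 0.31, adjusted p = 0.000780 by edgeR), *Kcnq5* (1.96 ± 0.26, adjusted p = 0.000780 by edgeR), *Kcnn2* and *Trpc5*, and lower for *Kcnj3*, a G-protein-gated potassium channel (-1.56 ± 0.25, adjusted p = 0.000802 by edgeR), *Kcnj6* and *Scn9a*, that is 4 and 3 of 16, with a median of 0.07. *Kcnj6* did not pass with DESeq2 (-0.80, adjusted p = 0.170) or with at least 5 *Tac2* plus *Kiss1* UMIs (-0.84, adjusted p = 0.0527). The peptide message *Cartpt* was lower by -3.65 ± 0.26 (adjusted p = 3.43e-06 by edgeR), and *Cpne4* and *Plagl1* by -3.90 ± 0.25 and -2.82 ± 0.20 (adjusted p = 6.06e-07 and 1.20e-06 by edgeR). *Sphkap*, an anchoring protein of protein kinase A, was at 306.3, 421.0, 135.3, 137.4, 661.0 and 770.1 CPM in the members and between 12.6 and 39.7 CPM in POMC neurons, a log2 fold change of 3.46 ± 0.29 (adjusted p = 3.58e-06 by edgeR). *Col24a1* was at 8.98 CPM in POMC neurons of fed library 1 and at 0 in the other 5 libraries, so no fold is given. *Pgr* (0.62 ± 0.17, adjusted p = 0.0681) did not pass edgeR's test here, although it was higher in the members in 6 of 6 libraries. With fed libraries 3 and 4 left out and libraries taken as samples in place of pools, *Pgr* passed (0.86, adjusted p = 0.0268 by edgeR). The 2 fasted libraries of that setting came from a single pool.

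**Figure D4:**
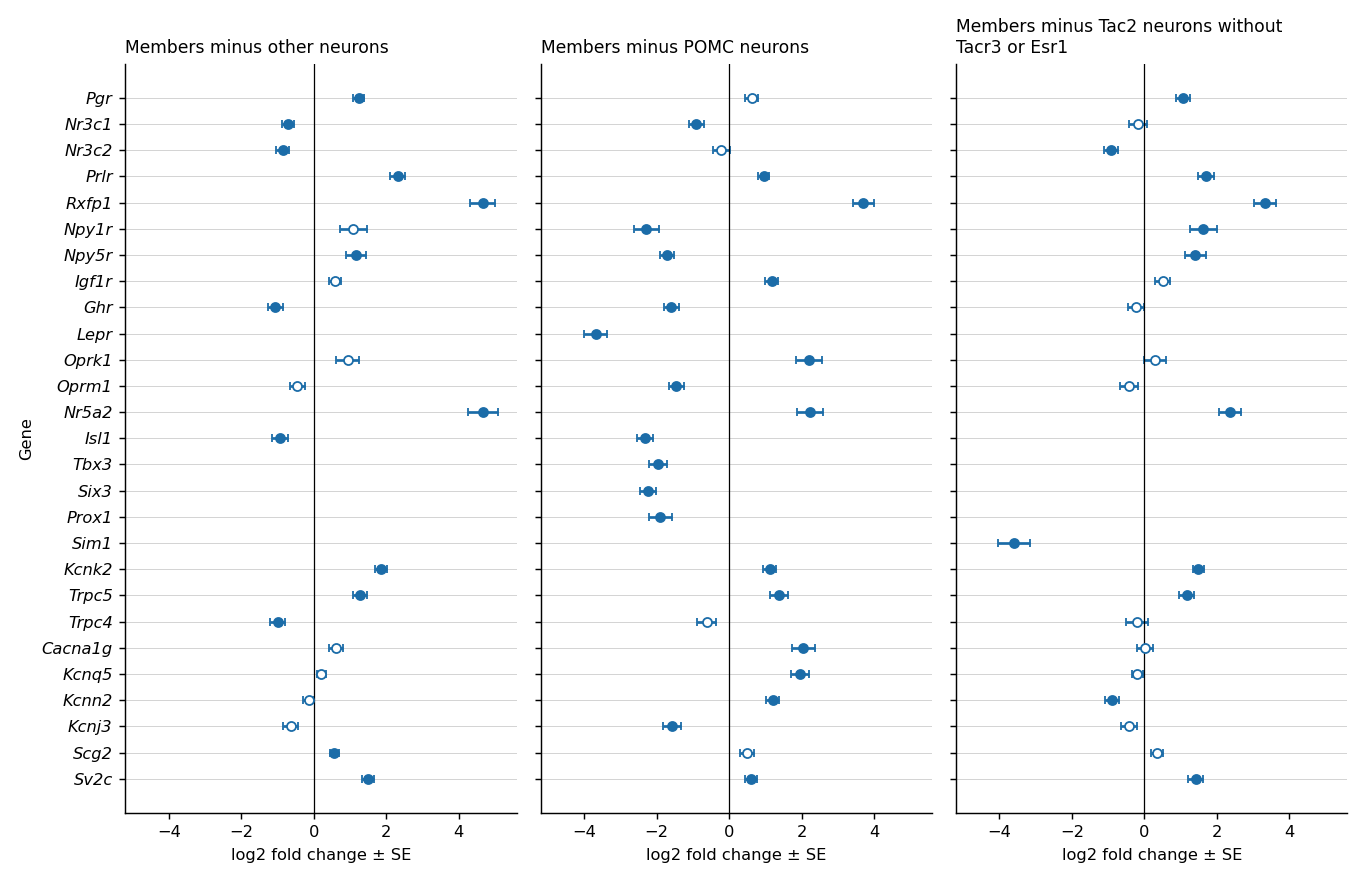
Log2 fold changes ± SE of listed genes in members against other neurons, POMC neurons and *Tac2* neurons without *Tacr3* or *Esr1* (filled points, adjusted p under 0.05; open points, above it; no point, not tested). *Lepr*, *Npy1r*, *Isl1*, *Six3*, *Tbx3* and *Prox1* lay well below zero against POMC neurons, and *Rxfp1* and *Prlr* lay above zero in all 3 comparisons.

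Another comparison set shared the condition on *Tac2* plus *Kiss1* UMIs, although the levels of these genes were not matched. A total of 319 neurons met every condition of the rule except that they had no *Tacr3* or *Esr1* UMI, with a median of 8182 UMIs in the fed and 8617 in the fasted libraries. They were even more concentrated in fed libraries 3 and 4, with 147 and 129 nuclei, against 14, 11, 10 and 8 in fed 1 and 2 and fasted 1 and 2. Of 6556 genes 194 (2.96%) differed, 109 higher (1.66%) and 85 lower (1.3%) in the members. *Pgr* was higher by 1.06 ± 0.20 on the log2 scale (adjusted p = 0.00218 by edgeR). It did not pass without libraries 3 and 4 (0.83, adjusted p = 0.196) or with DESeq2 (adjusted p = 0.436). *Greb1* was at 134.7 CPM in fed library 1 and between 4.25 and 17.0 CPM in the other 5 libraries of the *Tac2* neurons that lacked both receptors. The members were higher by 2.90 ± 0.34 (adjusted p = 1.24e-05 by edgeR).

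*Rxfp1* was higher by 3.33 ± 0.31, *Kcnk2* by 1.49 ± 0.16, *Prlr* by 1.70 ± 0.22 and *Nr5a2* by 2.37 ± 0.31 on the log2 scale (adjusted p = 1.24e-05, 1.20e-05, 6.40e-05 and 0.000127 by edgeR), each in 6 of 6 libraries. With DESeq2 *Rxfp1* did not pass (3.27, adjusted p = 0.214). Of 16 receptors tested 4 were higher and none lower, with a median of -0.13 against 0.00 over all genes. *Npy1r* and *Npy5r* were the other 2, at 1.62 ± 0.37 and 1.40 ± 0.29 (adjusted p = 0.0304 and 0.00641 by edgeR). *Npy1r* lost its call without fed library 1 or 2 (adjusted p = 0.0628 and 0.0552), and *Npy5r* without library 3 (adjusted p = 0.149), and neither passed with DESeq2 (adjusted p = 0.327 and 0.606). *Sim1*, a transcription factor of paraventricular and supraoptic neurons, was lower by -3.60 ± 0.44 (adjusted p = 0.000203 by edgeR), at 15.7, 35.1, 2.44, 2.70, 0 and 0 CPM in the members and between 33.7 and 138.0 CPM in the nuclei without the receptors. Without fed libraries 3 and 4, with libraries as samples in place of pools, 173 genes passed, 94 of them among the 194.

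The members with a *Kiss1* UMI (117) were set against those without (127). As a background, *Kiss1* was seen in 0.765%, 0.673%, 2.70%, 2.47%, 0.644% and 0.548% of other neurons in the 6 libraries, against 48.0% of the members, and in 2 of 1377 oligodendrocyte-like nuclei (0.145%). Median depths were 6794 UMIs in the members with *Kiss1* and 8340 in those without, and the rule had used *Kiss1* in part. Members without *Kiss1* had met the peptide condition through *Tac2* alone, so the calls of this split are a description and no independent test. The part of free RNA in the split was not tested. Of 3272 genes 109 (3.33%) passed, 44 higher (1.34%) and 65 lower (1.99%) with *Kiss1*. *Slc17a6* was at 295.2, 303.5, 187.0, 145.1, 134.5 and 162.5 CPM in the nuclei with *Kiss1* and at 231.4, 152.2, 55.8, 59.1, 24.7 and 95.3 CPM in those without. It was higher in all 6 libraries, by a log2 fold change of 1.29 ± 0.25 (adjusted p = 0.00818 by edgeR). The GABA synthesis gene *Gad2* was lower (adjusted p = 0.00496 by edgeR). It was not detected in the *Kiss1* nuclei of fed libraries 1 and 2 and both fasted libraries, so no fold is given. The serotonin receptor gene *Htr2c* was lower by -2.06 ± 0.25 and the synaptic adhesion gene *Nrxn3* by -1.80 ± 0.18 (adjusted p = 0.000735 and 0.000216 by edgeR), while *Col24a1*, *Kcnh8* and *Gnai1* were higher by 2.16 ± 0.34, 1.65 ± 0.24 and 1.39 ± 0.19 (adjusted p = 0.00270, 0.00149 and 0.00122 by edgeR). Of the 117 nuclei with *Kiss1* 94 were KNDy-like, and of the 127 without it 25 were. Within the KNDy-like nuclei no gene of 2231 passed edgeR's test between nuclei with and without *Kiss1*, and 37 (1.66%) had an unadjusted p under 0.05, but the side without *Kiss1* held only 6, 5, 5, 1, 4 and 4 nuclei in the 6 libraries and the clusters were chosen for *Kiss1*. Among glutamatergic members 3 genes passed and without fed libraries 3 and 4 the count was 7, and the folds moved unequally. In glutamatergic members *Kcnh8* was at 1.39 and *Col24a1* at 0.84 on the log2 scale (adjusted p = 0.233 and 0.721), and *Nrxn3* was at -1.09 (adjusted p = 0.132). *Gnai1* was at 1.23 without the 2 libraries (adjusted p = 0.0858). Within the KNDy-like nuclei *Slc17a6* was at 0.23, *Nrxn3* at -0.26 and *Kcnh8* at 0.66 (adjusted p = 1.00 each). *Slc17a6* did not pass without fed libraries 3 and 4 (0.86, adjusted p = 0.368), without library 3 (1.08, adjusted p = 0.0927) or with DESeq2 (1.26, adjusted p = 0.252).

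The fasted and fed members were then compared. Members were 0.321%, 0.310%, 1.41% and 1.28% of the neurons in fed libraries 1 to 4 and 0.354% and 0.410% in fasted libraries 1 and 2, with exact 95% intervals of 0.206 to 0.477%, 0.184 to 0.489%, 1.13 to 1.74%, 1.01 to 1.59%, 0.202 to 0.574% and 0.243 to 0.647%. The intervals, which cover counting error only, overlapped between the fasted libraries and fed libraries 1 and 2, and libraries 3 and 4 were higher. Median depths of the members were 4655 and 4359 UMIs in fed libraries 1 and 2 and 7978.5 and 7314 UMIs in fasted libraries 1 and 2. The mean was 0.83 ± 0.596% (SD, n = 4 libraries) in the fed and 0.382 ± 0.039% (SD, n = 2) in the fasted libraries. With every nucleus thinned to 2000 UMIs before the rule was applied, 2, 4, 19 and 17 members were left in fed libraries 1 to 4 and 0 and 1 in the fasted ones, and the means were 0.193% and 0.0132%. The thinned intervals of the fasted libraries (up to 0.0952% and 0.147%) still overlapped those of fed libraries 1 and 2 (0.00375 to 0.112% and 0.0219 to 0.205%). KNDy-like nuclei were 0.214%, 0.189%, 0.625% and 0.494% of neurons in the fed and 0.221% and 0.273% in the fasted libraries, with the same order. No test of these shares was made. An exact permutation test of 2 pools against 1 cannot reach 0.05, and no model was fitted to the shares.

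No gene passed the test of fasting within the members, which asked for significance under every pairing of the fed libraries. Of 9143 genes 0 passed an adjusted p of 0.05 with edgeR, 0 passed with DESeq2, and 477 (5.22%) had an unadjusted p under 0.05 with edgeR, 48 higher (0.525%) and 429 lower (4.69%) in the fasted members. Under a single pairing the count was 0 for libraries 1+2 and 3+4, 1904 for 1+3 and 2+4 and 1599 for 1+4 and 2+3. It was 26 without fed libraries 3 and 4, where the 4 libraries left were taken as samples in place of pools. It was 30 with libraries as samples and the replicate number as a block, and 140 with no filter on low counts. In both fasted libraries 1036 genes (11.3%) were above, and 978 (10.7%) below, every fed library. By that count 51 of 96 ribosomal protein and mitochondrially encoded genes were below and 4 above, and their median log2 fold change was -2.57, against -0.04 over all genes. Their share also separated libraries 3 and 4 from the rest, as given above, and its part in the fasting comparison was not tested. Of 16 peptide genes tested 7 were below in both fasted libraries, with a median of -4.21. In other neurons all 16 were below in both fasted libraries and highest in fed libraries 3 and 4. The part of free RNA in these values was not tested. Of 7 glucocorticoid and fasting genes tested, of 16 listed, 5 were above every fed library in both fasted ones (*Nfkbia*, *Fkbp5*, *Sgk1*, *Sesn1* and *Sesn3*) and 0 below, with a median of 0.71, and none passed the adjusted threshold. The 5 lower genes with the smallest p were *mt-Rnr1*, *Hcrt*, *Prdx1*, *mt-Cytb* and *Timm8b*, none of them past the adjusted threshold. Without fed libraries 3 and 4 *mt-Cytb* passed (-3.30, adjusted p = 0.00445). There the 4 libraries left were taken as samples, although the 2 fasted ones came from a single pool. *Hcrt*, the orexin message of lateral hypothalamic neurons, was at 31.4, 58.5, 212.0 and 117.2 CPM in the fed members and at 0 in both fasted libraries, against 31.0, 35.4, 374.6, 369.5, 13.3 and 7.22 CPM in other neurons.

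The 5 higher genes with the smallest p were *Col23a1*, *Vcan*, *Mapk4*, *Pdzd2* and *Lrrc1*, with an adjusted p of 0.916 each by edgeR. *Col23a1* was at 39.3, 23.4, 15.8 and 9.43 CPM in the fed and at 151.3 and 52.9 CPM in the fasted members, and *Vcan* at 39.3, 0, 19.5 and 16.2 CPM against 87.6 and 83.1 CPM. Both stood on lists of markers of other cell types, *Col23a1* of tanycytes and *Vcan* of oligodendrocyte precursors. The 4 tanycyte markers, all with a UMI and *Col23a1* the most abundant, summed to 39.3, 23.4, 18.3, 22.9, 159.3 and 75.5 CPM in the members of the 6 libraries. The 3 precursor markers, all with a UMI and *Vcan* the most abundant, summed to 39.3, 0, 19.5, 16.2, 87.6 and 135.9 CPM. Oligodendrocyte-like nuclei were 2.16%, 2.20%, 0.346% and 0.408% of the nuclei in the fed and 8.04% and 8.87% in the fasted libraries, while the 5 oligodendrocyte markers summed to 86.4, 58.5, 84.1, 64.7, 135.4 and 45.3 CPM in the members, with *Mbp* the most abundant. The part of glial RNA in these results was not tested.

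Named receptors of the KNDy system showed values without a call. *Prlr*, at 605.2 and 845.6 CPM in the fasted members, was above all fed libraries, the highest of which was at 514.5 CPM. Its log2 fold change was 0.92 ± 0.62 (adjusted p = 1.00 by edgeR), and 0.51 without fed libraries 3 and 4. At least 1 *Prlr* UMI was seen in 34 of 34 fasted members (100%, exact 95% interval 89.7 to 100%) and in 164 of 210 fed members (78.1%, 71.9 to 83.5%). KNDy-like nuclei, among which *Prlr* was seen more often than in the other members (94.1% against 68.8%), made up 22 of the 34 fasted and 97 of the 210 fed members, and within them the share was 87.5%, 100%, 94.9% and 90.3% in the fed and 100% in both fasted libraries. After thinning of each nucleus to 2000 UMIs the shares of all members were 67.6% (49.5 to 82.6%) and 45.7%. In other neurons the shares of *Prlr* were 29.3% fasted and 32.6% fed, and in oligodendrocyte-like nuclei 1.70% and 1.60%. The difference between the fasting effects on *Prlr* in members and in other neurons was 1.14 ± 0.28 on the log2 scale (adjusted p = 1.00 by edgeR). Without fed libraries 3 and 4 this difference was 0.76. *Oprk1* was at 79.6 and 75.5 CPM in the fasted members, also above each fed library. Its log2 fold change was 0.95 ± 0.66 (adjusted p = 1.00 by edgeR), and 0.50 without fed libraries 3 and 4.

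*Fos*, the immediate early gene used as a mark of recent activity, was seen in 14 of 210 fed members (6.67%, exact 95% interval 3.69 to 10.9%). It was seen in 0 of 34 fasted members, which allows a share of nuclei with a *Fos* UMI of up to 8.82%. The limit covers counting error only, and the 34 nuclei came from a single pool. Median depths were 7786 and 7689 UMIs. In other neurons *Fos* was seen in 5.65% fed and 5.81% fasted, with medians of 6327 and 6803 UMIs, and in oligodendrocyte-like nuclei in 0.798% and 0.400%, with medians of 1799 and 2484 UMIs. After thinning to 2000 UMIs, *Fos* was seen in 4 of 210 fed members (1.9%) and 0 of 34 fasted members, and in 1.96% and 2.48% of other neurons. The limit of 8.82% lies above the share pooled over the fed members. By library that share was 12.5% (3 of 24), 11.1% (2 of 18), 6.82% (6 of 88) and 3.75% (3 of 80) in fed libraries 1 to 4. The limit lies below the shares of fed libraries 1 and 2. Those shares rest on 3 and 2 nuclei with *Fos*, too few to tell them from the limit. No test of *Fos* was made. The tested immediate early genes, 5 of 20, gave no call.

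In a test of whether fasting acted differently on the members than on other neurons, 0 of 6537 genes passed with edgeR and 0 with DESeq2, and 282 (4.31%) had an unadjusted p under 0.05. The same test was repeated for the 119 KNDy-like nuclei, a choice made after the values were seen, and 5 of 2780 genes (0.18%) passed, against 151 (5.43%) with an unadjusted p under 0.05, all 5 with a higher fasting effect in the KNDy-like nuclei. *Kcnmb2* and *Kctd8* were among the leading genes of the KNDy-like clusters, so these nuclei were grouped partly on the values of those genes. *Kcnmb2* (chr3:31902507-32200180, plus strand), a beta subunit of the calcium-activated BK potassium channel, was at 389.5, 118.9, 103.5 and 70.9 CPM in the KNDy-like nuclei of the fed libraries and at 662.7 and 716.7 CPM in the fasted ones. *Sphkap* was at 470.1, 515.1, 221.2 and 293.1 CPM and at 987.3 and 971.1 CPM. *Kctd8*, an auxiliary subunit of GABA-B receptors, was at 483.5, 475.5, 103.5 and 141.8 CPM and at 689.7 and 682.1 CPM. For these 3 genes both fasted libraries were above all fed ones, and libraries 3 and 4 were the lowest or among the lowest. The metabotropic glutamate receptor gene *Grm7* was at 1074, 871.7, 809.9 and 761.2 CPM and at 1988 and 1792 CPM, likewise without overlap. *Grm7* was lower in the KNDy-like nuclei than in the other neurons of each fed library and higher in both fasted ones. *Galntl6*, a glycosyltransferase gene, was at 4875, 3308, 1088 and 1272 CPM and at 3990 and 4428 CPM, with overlap. Separation of this kind was common in the KNDy-like nuclei. Of 4698 genes tested for fasting there, both fasted libraries were above every fed one for 500 and below for 580.

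The difference of the fasting effects, on the log2 scale, was 2.26 ± 0.28 for *Kcnmb2* (adjusted p = 0.000114 by edgeR), 1.31 ± 0.26 for *Sphkap* and 1.53 ± 0.29 for *Kctd8* (adjusted p = 0.000876 each by edgeR), 1.02 ± 0.24 for *Galntl6* (adjusted p = 0.0206 by edgeR) and 1.03 ± 0.26 for *Grm7* (adjusted p = 0.0413 by edgeR). None of the 5 passed the test of fasting within the KNDy-like nuclei alone, where 0 of 4698 genes did with edgeR and 317 (6.75%) had an unadjusted p under 0.05. None kept its call whichever library was left out, and with DESeq2 1 gene passed and *Sphkap*, *Kctd8*, *Galntl6* and *Grm7* did not (adjusted p = 1.00 each). Without fed library 2, 3 or 4 no gene passed, with adjusted p-values for *Kcnmb2* of 0.0923, 0.267 and 1.00, and without both libraries 3 and 4 the log2 differences were 1.79 for *Kcnmb2*, 0.79 for *Sphkap*, 0.66 for *Kctd8*, 0.47 for *Galntl6* and 1.16 for *Grm7*, with adjusted p-values from 0.324 to 0.775.

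**Figure D5:**
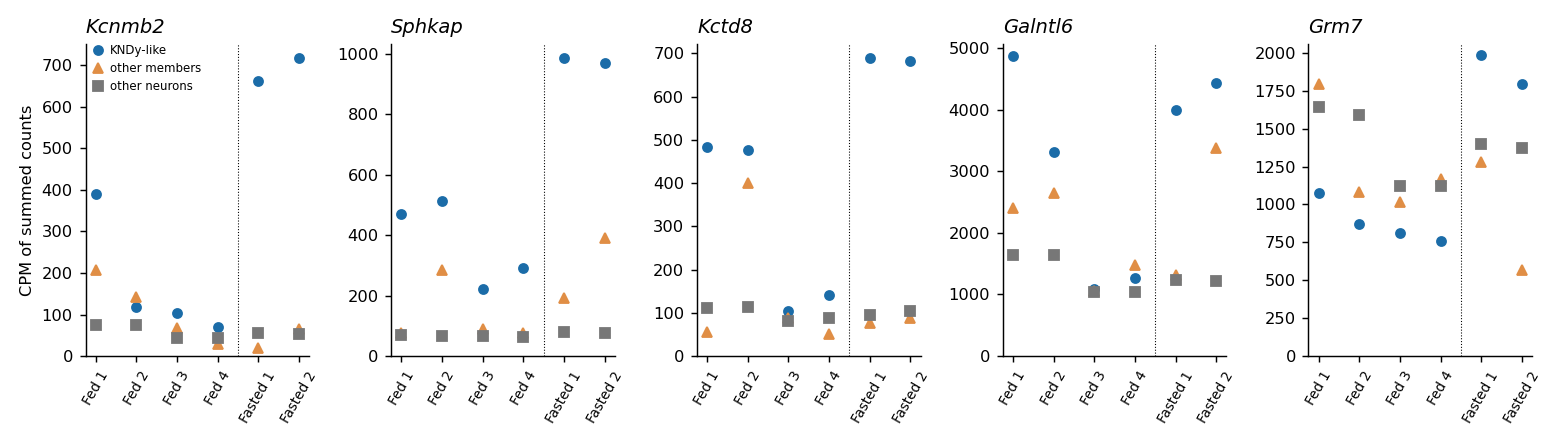
Levels, in CPM of the counts summed per library, of the 5 genes whose fasting effect differed between KNDy-like nuclei (blue circles) and other neurons (grey squares), with the members outside the KNDy-like clusters (orange triangles), in the 4 fed and 2 fasted libraries. In the KNDy-like nuclei *Kcnmb2*, *Sphkap*, *Kctd8* and *Grm7* stood higher in each fasted library than in any fed one, and *Galntl6* overlapped. Of all 4698 genes tested for fasting in these nuclei, 500 stood higher in this way and 580 lower.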

How the data were processed

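NucSeq of 6 libraries was analysed (4 ad libitum, 2 fasted). Per the labels and the study's methods, the authors used 10x 3′ version 3 kits and Cell Ranger 5.0.1 on mm10, and deposited raw UMI counts per gene and nucleus for 55399 features; total counts per library ranged from 31757655 to 59940795, and intervals of shares cover counting error only. UMIs of members and comparison sets were summed per library and pool (Python 3.11.15, scipy 1.17.1, scanpy 1.11.5). EdgeR 4.0.16 (quasi-likelihood, TMM) was run under the 3 pairings of the fed libraries; the log2 fold change is that of libraries 1+2 and 3+4, SE is its size over the root of F, and the single fasted pool was taken to have the spread of the fed pools. For fasting, genes needed 10 counts in 2 libraries; between sets, a mean level equal to 10 counts in a member sum. Genes of the rule were left out of tests. Some listed genes, and the counts of the steroid receptor list, are not reported here. Members were clustered on 2000 variable genes centred by library, 20 components and 15 neighbours, with Leiden at resolution 0.5; doublets (scanpy's Scrublet score, top 5% per library) stayed in and were left out as an alternative. Intervals are exact binomial; a count of 0 allows 3 counts of the total.

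Genes were named from lists (KNDy genes, transmitters, steroid receptors, hormone receptors, transcription factors, peptides, granule genes, channels, immediate early, fasting-related, ribosomal and mitochondrial genes) and, per comparison, up to 10 called genes in each direction with an absolute log2 fold change of at least 1 that differed the same way in all 6 libraries, or 5 by unadjusted p where none was called. Members and lists were chosen with earlier results of these data known. Positions are from GENCODE vM21 (GRCm38), promoters from RefSeq. The scripts were tested on simulated data. Alternatives were DESeq2 1.42.0, no filter, single pairings, libraries as samples, libraries left out, doublets left out, glutamatergic members, at least 5 *Tac2* plus *Kiss1* UMIs, and thinning to 2000 UMIs; those on KNDy-like members and without fed libraries 3 and 4 were added after the data were seen.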

Additional observations from a re-analysis of the deposited data

Results flagged for a closer look

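Among 108 sets of 4 ad-libitum-fed (fed) libraries, 4 had 1 library far from the other 3 by Dixon's criterion, and chance flags about 1 in 20. *Kcnj6* was at 46.8 CPM in the members of library 2 and between 114.5 and 125.7 CPM in the others. *Egfem1*, lower in members than in *Tac2* neurons without the receptors, was at 561.3 CPM in library 2 and between 169.8 and 235.6 CPM in the others. *Syt17* was at 86.4 CPM in library 1 and between 35.1 and 39.1 CPM in the others. *Kcnmb2* was at 389.5 CPM in the KNDy-like nuclei of library 1 and between 70.9 and 118.9 CPM in the others.

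The effect of fasting on KNDy-like nuclei and on other neurons passed a test of the difference for 5 genes, by 2.26 for *Kcnmb2*, 1.31 for *Sphkap*, 1.53 for *Kctd8*, 1.02 for *Galntl6* and 1.03 for *Grm7* on the log2 scale (adjusted p = 0.000114, 0.000876, 0.000876, 0.0206 and 0.0413 by edgeR's quasi-likelihood interaction test). Each of the 5 lost its call without fed library 2, 3 or 4, *Kcnmb2* alone passed with DESeq2, and none passed without fed libraries 3 and 4, where *Kctd8* was at 0.66, *Galntl6* at 0.47 and *Sphkap* at 0.79 (adjusted p = 0.763, 0.775 and 0.763). The KNDy-like nuclei were chosen after the values were seen, *Kcnmb2* and *Kctd8* were among the genes that led their clusters, and the part of depth and of ribosomal share, which set fed libraries 3 and 4 apart, was not tested.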

How the results depend on the processing

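In counts simulated for the fasting comparison over 9152 genes, 12.2% of genes changed by 1 and 61.1% of those changed by 2 on the log2 scale were recovered. The simulated libraries shared a common profile with a fixed spread and lacked the difference of fed libraries 3 and 4 from the rest. These shares therefore do not measure what the fasting test could recover in the real counts. The counts of called genes hung on the unknown pairing of the fed libraries. Neurons had medians of 4637, 4764.5, 8799.5 and 8891 UMIs in fed libraries 1 to 4. Pairings other than 1+2 and 3+4 therefore summed libraries of unlike depth. With pools 1+3 and 2+4, or 1+4 and 2+3, fasting gave 1904 and 1599 genes in place of 0, its interaction with other neurons 38 and 309 in place of 0, members against other neurons 666 and 705 in place of 267, against POMC neurons 637 and 657 in place of 404, against *Tac2* neurons without the receptors 333 and 308 in place of 194, the *Kiss1* split 278 and 260 in place of 109, and the KNDy-like interaction 101 and 21 (8 with pools 1+2 and 3+4) in place of 5. In this order of comparisons, no filter on low counts gave 140, 11, 683, 706 and, for the *Kiss1* split, 230. Taking 6 libraries as samples gave 5 for the interaction, 543 against other neurons, 321 against *Tac2* neurons, 194 for the *Kiss1* split and 3 for the KNDy-like interaction. DESeq2 gave 206, 49, 37 and 1 against POMC neurons, against *Tac2* neurons, for the *Kiss1* split and for the KNDy-like interaction. At least 5 *Tac2* plus *Kiss1* UMIs gave 125, 222 and 113 in the 3 comparisons of sets, and reversed the fasting log2 fold changes of *Vcan* (-6.12) and *Mapk4* (-0.17). Glutamatergic members alone gave 243 against POMC neurons and 3 for the *Kiss1* split. KNDy-like members alone gave 0 for the *Kiss1* split, where *Prlr* reversed to -0.23, and 5 for the interaction. Without fed libraries 3 and 4, the 4 libraries left were taken as samples in place of pools. Fasting then gave 26, the interaction 2, other neurons 441, the *Kiss1* split 7 and the KNDy-like interaction 0. Leaving out 1 library at a time gave 191 to 365 against other neurons, 278 to 361 against POMC neurons, 87 to 165 against *Tac2* neurons, 32 to 142 for the *Kiss1* split, 0 to 8 for the interaction and 0 to 15 for the KNDy-like interaction. The cause was not tested, apart from the fewer genes or samples of a setting.

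The replicate numbers did not pair the libraries (correlations of deviations of at most 0.0383 in size), and with the number as a replicate block fasting gave 30 genes; with no replicate block for the pool, each of the 4 comparisons of sets gave 0. Thinning to 2000 UMIs left members at 0.193% of fed and 0.0132% of fasted neurons, *Pdyn* in 6.67% and 8.82% and *Prlr* in 45.7% and 67.6% of fed and fasted members. The fasted share was 0.0784% with at least 5 UMIs and 0.247% for KNDy-like members. Leiden resolution 1.0 gave 9 clusters. Of the named genes followed against other neurons, 26 of 32 kept their call whichever library was left out, as did 31 of 32 against POMC neurons, 15 of 20 against *Tac2* neurons and 7 of 10 for the *Kiss1* split.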
